A study of Mus musculus with 6 samples.

Results

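The cytosolic ribosomal protein genes, which encode the protein part of the ribosomes outside the mitochondria, were measured in naive CD4 T cells, which are helper T cells before their first contact with antigen. Members were taken by gene name: symbols that begin with Rpl or Rps and go on with a number, together with Rplp0, Rplp1, Rplp2 and Rpsa, without the S6 kinases and without pseudogenes. The annotation held 84 such protein-coding genes, and 83 of them had a row in the table, out of 16911 named genes. Of the 83, 51 belong to the large subunit of the ribosome and 32 to the small subunit; Rpl10l had no row. The cells came from C57BL/6 mice of 2 groups, wild-type littermates (3 libraries, WT1 to WT3) and mice without Trim28 (labelled Trim28 KO, 3 libraries, KO1 to KO3). Trim28 encodes a corepressor of transcription that is recruited by KRAB zinc finger proteins. Cells were enriched on magnetic beads, sorted by flow cytometry and lysed in Trizol, and 100 bp read pairs were sequenced. The labels do not name the promoter or Cre that removed Trim28, the age of the mice, or whether each library came from a separate mouse; p-values therefore cover the spread among the libraries only, which may be technical.

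A ribosome joins a small subunit, which reads the messenger RNA, to a large subunit, which forms the peptide bonds, and each protein of a subunit is normally made in step with the others. The messenger RNAs of these proteins are among the most abundant of a lymphocyte. They typically begin with a C followed by an unbroken run of pyrimidines, the terminal oligopyrimidine or TOP motif, through which mTOR signalling sets how much of them is translated. A resting T cell keeps translation low and raises ribosome production when it is activated.

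The start of the gene is shown here because the TOP motif is the sequence feature that these genes are known to share. RefSeq promoters of the GRCm38.p6 build, the assembly of mm10, were found for 63 of the 83 members, with 75 entries in all. Each stretch runs 5′ to 3′ on the strand of the gene and holds 15 bases before and 25 bases from the annotated start on, 40 in all. Capitals mark the longest run of a C followed by at least 4 pyrimidines.
Rps18 (chr17:33955641-33955680, minus strand): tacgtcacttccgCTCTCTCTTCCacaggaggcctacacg
Rps10 (chr17:27635220-27635259, minus strand): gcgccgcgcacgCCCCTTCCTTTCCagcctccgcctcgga
Rpl28 (chr7:4792950-4792989, plus strand): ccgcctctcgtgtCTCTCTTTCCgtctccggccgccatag
Rps6 (chr4:86857343-86857382, minus strand): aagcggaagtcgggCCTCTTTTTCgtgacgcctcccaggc
Rpl18 (chr7:45718056-45718095, plus strand): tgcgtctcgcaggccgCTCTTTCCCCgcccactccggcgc
Rpl13a (chr7:45128721-45128760, minus strand): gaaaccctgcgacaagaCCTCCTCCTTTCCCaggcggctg
Rpl22l1 (chr3:28805493-28805532, plus strand): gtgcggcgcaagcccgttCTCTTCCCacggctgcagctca
Rps12 (chr10:23787185-23787224, minus strand): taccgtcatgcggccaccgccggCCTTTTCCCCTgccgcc
Rps16 (chr7:28350674-28350713, plus strand): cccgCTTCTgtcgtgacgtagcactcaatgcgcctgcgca
Rpl7l1 (chr17:46782632-46782671, minus strand): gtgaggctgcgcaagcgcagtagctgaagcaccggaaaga
In the 8 stretches from Rps18 to Rps12 a pyrimidine run lay near the annotated start. Rps16 had a short run before the start, and Rpl7l1 had no run. Both are described below as members near or above 0 in their fold change. So is Rpl35a, which had a run of 13 bases in an entry, while Rps4x, at a log2 fold change of -0.50, had no run. A link between the run and the fold change was not tested. Such a run stood in the stretch of 47 of the 63 members. Counted by entry, 69.3% of the 75 member stretches held one, against 44.8% of the same stretches of all 32851 promoters.

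The whole promoter entries were searched for motifs of the transcription factors known at ribosomal protein promoters. The window was 300 bases, 250 before and 50 from the start on. Searched on both strands were CCGGAAG for GABPA, AANATGGC for YY1, GGGCGG for SP1, TATAAA for the TATA box and CACGTG for the E-box that Myc binds. GABPA letters stood in 36% of the 75 member windows and in 8.86% of all 32851 promoters, YY1 letters in 22.7% and 6.05%, and SP1 letters in 58.7% and 35.7%. TATAAA stood in 10.7% and 13.6%, and CACGTG in 10.7% and 7.15%. A C followed by at least 4 pyrimidines, read on the gene's strand only, began exactly at the annotated start in 18.7% of member windows and 2.51% of all promoters, and lay within 20 bases of it in 69.3% and 46.7%. The 250 bases before the start are printed for Rps2 and Rpl13a, which between them hold all of the motifs searched for on both strands; capitals mark the matches.
Rps2 (chr17:24719813-24720062, plus strand): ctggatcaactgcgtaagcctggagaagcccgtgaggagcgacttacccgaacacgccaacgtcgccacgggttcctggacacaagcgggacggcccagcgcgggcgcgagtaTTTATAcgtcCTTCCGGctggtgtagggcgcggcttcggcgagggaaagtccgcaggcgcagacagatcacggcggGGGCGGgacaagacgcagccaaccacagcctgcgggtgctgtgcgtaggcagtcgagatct
Rpl13a (chr7:45128746-45128995, minus strand): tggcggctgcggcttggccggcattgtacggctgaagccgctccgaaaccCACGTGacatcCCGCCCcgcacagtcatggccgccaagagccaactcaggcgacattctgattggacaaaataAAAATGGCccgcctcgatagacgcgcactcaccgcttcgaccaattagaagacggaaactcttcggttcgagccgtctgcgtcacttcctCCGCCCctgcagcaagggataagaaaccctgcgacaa
In Rps2 the TATA box letters began at position -137 and the GABPA letters at -127, both on the opposite strand, and the SP1 letters at -61, counting the annotated start as 0. In Rpl13a the E-box letters began at -200, the YY1 letters at -127 and SP1 letters at -189 and -37. These matches describe the sequence and were not tested as binding sites.

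The table gives reads divided by a size factor per library, called normalized reads below. Depth ran from 22005759 to 44372701 reads. Trim28 itself was at 8287 to 9428 normalized reads in the wild-type group and at 628 to 1247 in the knockout group (log2 fold change -3.38; limma adjusted p 0.000135). WT1 and KO2 held 13625 and 12677 normalized reads of 4 Y-linked genes and the other libraries at most 2.39. Xist, the other check of library sex, was at 12289 and 16359 in WT1 and KO2 and at 19461 to 28062 in the other libraries. WT1 and KO2 thus held both Y-linked and Xist reads. The same 2 libraries were the shallowest of their groups. KO3 stood apart in markers of other cell types. The summed level of 11 B cell markers was 392 to 569 in the wild-type libraries, 461 and 393 in KO1 and KO2, and 2283 in KO3, and that of the 2 CD8 genes was 561 to 1065, 755 and 708, and 4416. The sum of 10 myeloid markers was 1224 to 2174, 1035 and 1068, and 4294, and dendritic cell and NK cell markers were also highest in KO3. Erythroid markers summed to 109 in KO3 and 93.4 in WT1, and to at most 16.0 in the other libraries. Of the B cell markers, Ebf1 was at no more than 1.1 in every library, and of the myeloid markers, Cd14 was at 0 in all libraries but KO2. The 13 markers of naive CD4 T cells summed to 190286 to 207989 in the wild-type libraries and to 197218, 185612 and 159011 in KO1, KO2 and KO3. Calls are also given without KO3 where they differ.

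Ribosomal protein genes were lower in the knockout libraries in nearly every member. Of 82 tested members, 80 had a log2 fold change below 0 and 2 above it, against 49.6% and 50.4% of the 13022 rows tested. Their median was -0.38, a difference of -23.4%, against 0.0019 over all tested rows. With the table total as the scale 77 of the 82 were below 0, and with quantile normalization 78 were, without Rpl4, Rpl13a, Rps14 and Rps16. No single member passed: with limma, 0 of 82 had an adjusted p under 0.05 in either direction (background 0.315% of rows lower and 1.19% higher). At an unadjusted p under 0.05, 70 of the 82 were lower and 0 higher (background 5.84% and 6.84%). With quantile normalization this count was 29 lower and 0 higher (background 7.1% lower), and the median was -0.21. All 3 knockout values lay below all 3 wild-type values in 70 of the 82 (background 9.58%), and the reverse was seen in 0 (background 9.21%). In bulk RNA, fewer cells of a type and less RNA per cell cannot be told apart. Members of 1 pathway vary together, so these counts describe the set and are no test of it.

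The size of the difference varied little among members. The middle 50% of log2 fold changes lay between -0.43 and -0.33, and 63 of the 82 lay between -0.5 and -0.25, while the whole range was -1.03 to 0.73. The median was -0.36 over 50 large-subunit members and -0.39 over 32 small-subunit members, with 49 and 31 of them below 0. Of the 50, 43 had an unadjusted p under 0.05 and lower values, and of the 32, 27 did. The standard error of a single member's fold change had a median of 0.12. It is the error of a difference between the groups, and the error of a difference between members was not computed. The 82 tested genes lie on 19 chromosomes, 14 of them on chromosome 7, and the median per chromosome ran from -0.48 (chromosome 12, 2 genes) to -0.19 (chromosome 14, 2 genes). The 4 X-linked members, Rpl10, Rpl36a, Rpl39 and Rps4x, had a median of -0.44.

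**Figure D1:**
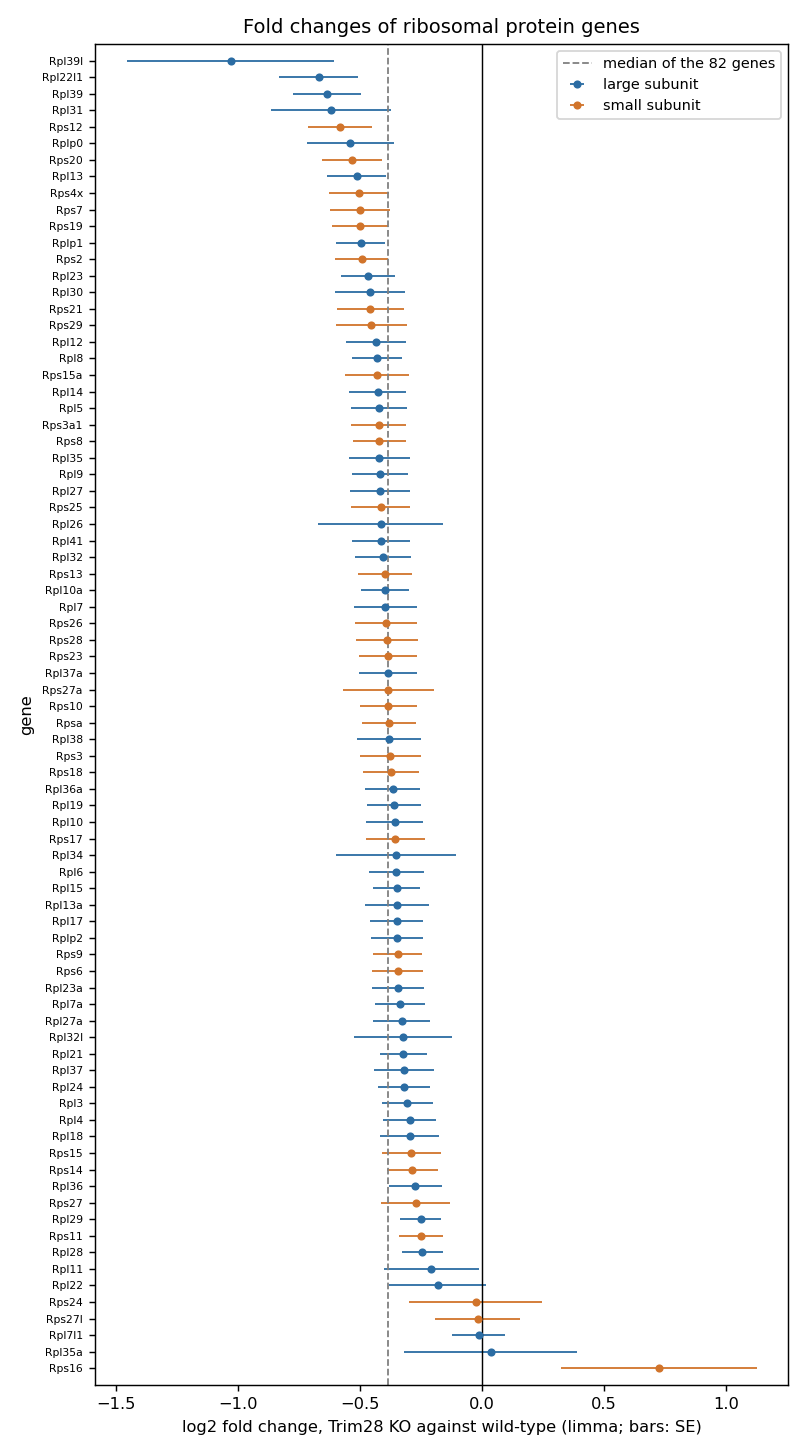
The log2 fold changes of 80 of the 82 tested genes (points; bars are limma's standard errors; blue for the large subunit, orange for the small), Trim28 KO against wild-type, 3 libraries each, with genes ordered by the value. Most points lie close to the dashed line, the median of -0.38 over all 82, and 2 genes, Rpl35a and Rps16, lie above 0.

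The libraries did not contribute equally. Set against each gene's wild-type mean, the median member stood at 105%, 102% and 92.5% in WT1, WT2 and WT3, and at 67.6%, 82.8% and 79.5% in KO1, KO2 and KO3. KO1 was the lowest of all 6 libraries in 71 of the 82 members, and WT3 was the lowest wild-type library in 62. The 3 knockout medians lay below the 3 wild-type medians, and the gap between WT3 and KO2 was smaller than that between KO1 and KO2. Without KO1 the median log2 fold change was -0.30, and without WT3 it was -0.44. KO3, the library with more markers of other cells, lay between KO1 and KO2, and without it the median was -0.41.

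**Figure D2:**
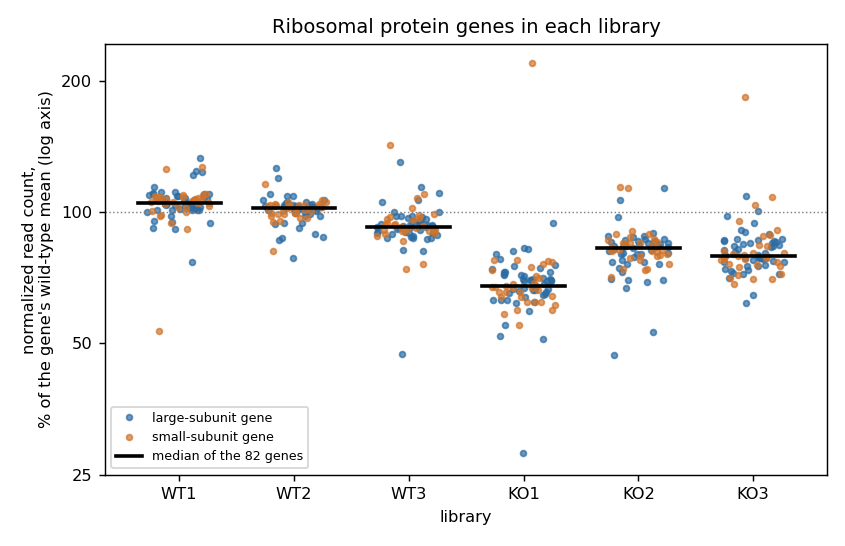
Normalized reads of the 82 tested genes in each library as a percentage of the gene's wild-type mean (vertical axis, log scale); each point is a gene (blue large subunit, orange small subunit) and the black bar is the median. The median is 92.5% or more in the wild-type libraries and 82.8% or less in the knockout libraries, with KO1 lowest at 67.6%.

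Summed over the 83 genes, ribosomal protein rows took 14.1%, 13.9% and 13.1% of all normalized reads in WT1, WT2 and WT3. They took 9.41%, 11.3% and 11.7% in KO1, KO2 and KO3. The knockout libraries lay below the wild-type libraries, at 10.8% ± 1.24 against 13.7% ± 0.556 (SD, n = 3 per group), a difference of -2.88 percentage points. Large-subunit genes went from 7.45% to 5.92% and small-subunit genes from 6.24% to 4.89%. With the distributions of all libraries made equal (quantile normalization) the difference was -1.26 points. No p is given for the sum, since the members were chosen with results of these data known.

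**Figure D3:**
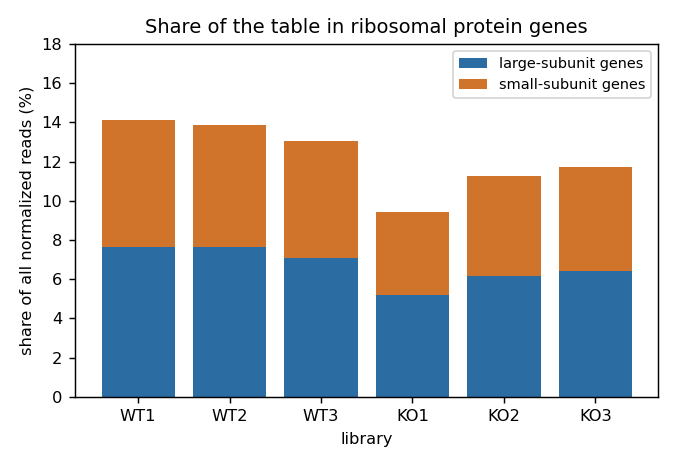
Share of all normalized reads of a library that fell in large-subunit (blue) and small-subunit (orange) ribosomal protein genes, as stacked bars from 0. Wild-type libraries reach 13.1% to 14.1% and knockout libraries 9.41% to 11.7%, with KO1 the lowest.

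The smallest p among the members belonged to Rplp1 (chromosome 9, 61913283 to 61914510), an acidic protein of the stalk of the large subunit that recruits elongation factors. WT1, WT2 and WT3 held 125852, 118380 and 110989 normalized reads of it, and KO1, KO2 and KO3 held 78331, 86253 and 86924. The groups lay well apart, and the lowest wild-type value was above the highest knockout value. In limma the fold change was -0.50 on the log2 scale (SE 0.10) and the adjusted p was 0.0578, just over the threshold of 0.05. An exact two-sided permutation test gave 0.1, the smallest p that 3 libraries against 3 allow. Rplp1 passed, as the only member, when libraries were scaled to the upper quartile (adjusted p 0.0428; background 0.307%), when only rows with a mean of at least 50 were tested (0.0497; background 0.453%), and with limma's voom weights on reads (0.0468; background 0.261%). It was also called without KO3 (adjusted p 0.0326). Other settings moved it away from the threshold: with quantile normalization its log2 fold change was -0.22 (adjusted p 0.33), and the adjusted p was 0.136 with the replicate block, 0.138 without the trend and up to 0.334 with 1 library left out.

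The other stalk proteins were also lower, at log2 fold changes of -0.54 for Rplp0, -0.43 for Rpl12 and -0.35 for Rplp2. Rplp0, the protein that anchors the stalk, was at 106996, 146883 and 95290 in WT1 to WT3 and at 69068, 93456 and 75221 in KO1 to KO3. WT2 stood above the rest, and the lowest wild-type value was only just above the highest knockout value. Rplp2, the partner of Rplp1, was at 53326 ± 2280 and 42000 ± 4754 (SD, n = 3 per group), and Rpl12, which sits at the base of the stalk, at 145331 ± 10752 and 107961 ± 13624. The unadjusted p was under 0.05 for all 4, as for 70 of the 82 members (background 5.84% lower). The median log2 fold change of the 4 was -0.47.

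Rpl5 and Rpl11 bind the 5S ribosomal RNA together, and the free complex is known to hold Mdm2, the ligase that degrades p53. Rpl5 was at 110361, 103533 and 90645 in WT1 to WT3 against 70695, 82862 and 73173 in KO1 to KO3, with no overlap (log2 fold change -0.42, SE 0.11; limma adjusted p 0.156). Rpl11 was at 20909, 29612 and 31060 and at 22412, 18766 and 29583. Its groups overlapped widely, with the shallowest library of each group the lowest (log2 fold change -0.21, SE 0.20; limma adjusted p 0.703). With 1 library left out the fold change ran from -0.39 (without WT1) to -0.06 (without KO2). These partners were not tested against each other.

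Around the peptidyl transferase centre, where peptide bonds form, all 3 listed genes were lower at an unadjusted p under 0.05 (background 5.84%). Rpl3 was at 75851 ± 1642 and 61509 ± 6075, Rpl8 at 89650 ± 3512 and 66623 ± 5831, and Rpl10 at 56544 ± 5479 and 44145 ± 4863 (SD, n = 3 per group). Rpl10a, the protein of the mobile L1 stalk through which spent transfer RNA leaves, was at 29822 ± 2525 and 22610 ± 1517. Of 8 genes for proteins at the exit tunnel of the growing chain, all 8 had groups that did not overlap (background 9.58% lower). An unadjusted p under 0.05 was reached by 7 (background 5.84% lower), and the median log2 fold change was -0.39. Over all 82 members each of these counts was 70 and the median was -0.38. The 8 genes were Rpl4, Rpl17, Rpl19, Rpl23a, Rpl26, Rpl31, Rpl35 and Rpl39. Rpl26 missed that p, and its levels were only 54.3 ± 11 and 40.2 ± 5.30.

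Rpl39 (chromosome X, 37082518 to 37085222), a very small protein of the tunnel wall, was among the members with the largest difference. WT1 to WT3 held 44090, 43647 and 40352 normalized reads, and KO1 to KO3 held 21895, 30010 and 31456. The wild-type values were close together, and KO1 was far below KO2 and KO3. The fold change was -0.64 on the log2 scale (SE 0.14; limma adjusted p 0.0787). Rpl31, at the tunnel's rim, had a log2 fold change of -0.62 (SE 0.25) but few reads, at 138, 111 and 113 against 66.4, 64.1 and 110. KO3 was close to the wild-type values there.

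In the small subunit, the genes with the smallest p were Rps2, Rps12, Rps20 and Rps19. Rps2 (chromosome 17, 24718121 to 24721927), which lines the channel where messenger RNA enters, was at 65051, 63674 and 54847 against 39219, 45045 and 46007. Its groups did not overlap (log2 fold change -0.49, SE 0.11; limma adjusted p 0.081). Rps3, the other listed protein of the entry channel, was at 124807, 120802 and 107020 against 78891, 101335 and 92323, also without overlap (limma adjusted p 0.242).

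Rps12 (chromosome 10, 23785183 to 23787383), a protein of the small subunit's beak, was at 69244, 63757 and 60409 in the wild-type libraries against 35502, 45712 and 48836 in the knockout. Every knockout value was below every wild-type value, with KO1 lowest (log2 fold change -0.58, SE 0.13; limma adjusted p 0.0894). Rps20 (chromosome 4, 3831584 to 3835655) was at 81255, 73680 and 68019 against 44329, 56643 and 53390 (log2 fold change -0.53, SE 0.12; limma adjusted p 0.0921). Rps19 (chromosome 7, 24884592 to 24889811), the gene most often mutated in the inherited anemia of Diamond and Blackfan, was at 89358, 86908 and 73286 against 54699, 64624 and 56821 (log2 fold change -0.50, SE 0.12; limma adjusted p 0.0972). In all 3 of these genes WT3 was the lowest wild-type library and still lay above KO2.

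**Figure D4:**
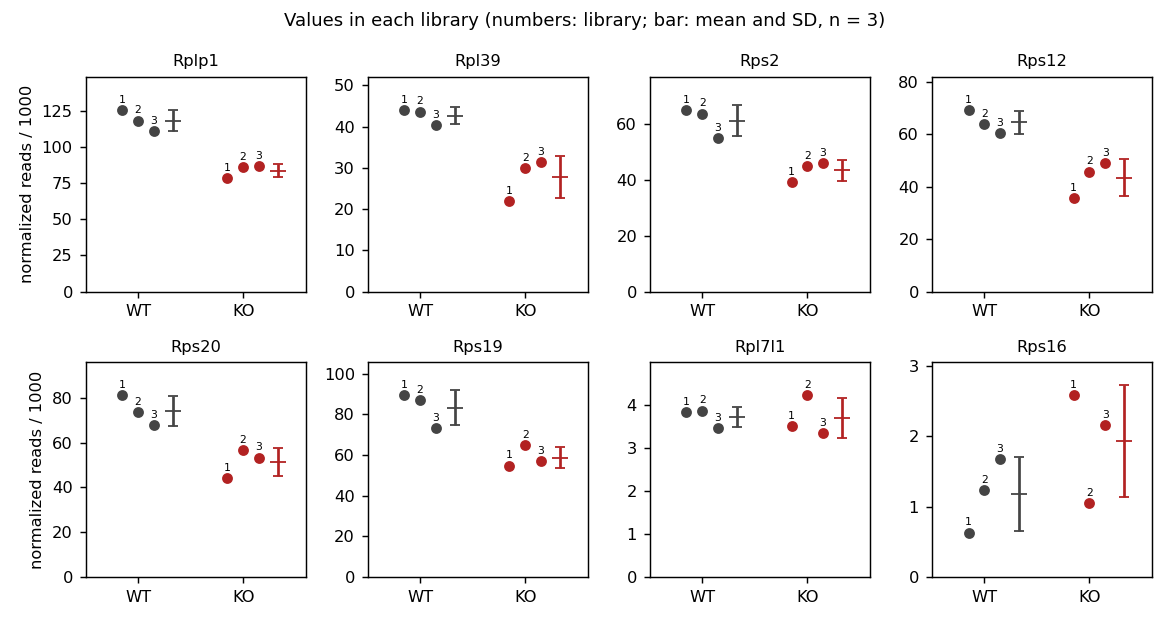
Normalized reads, divided by 1000, of 8 genes in each library (points numbered by library, black wild-type, red Trim28 KO); bars are the mean and SD of 3 libraries and each axis starts at 0. In Rplp1, Rpl39, Rps2, Rps12, Rps20 and Rps19 all knockout points lie below all wild-type points, while in Rpl7l1 and Rps16 the groups overlap.

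In the remaining listed roles of the small subunit all genes had log2 fold changes below 0, though Rps14 was not below 0 with quantile normalization, and the groups of Rps15 and Rps27a overlapped. At the decoding centre, where codon and anticodon are matched, Rps23 was at 74312 ± 6172 and 56967 ± 6639 and Rps15 at 52132 ± 3977 and 42776 ± 6012 (SD, n = 3 per group). The groups of Rps23 did not overlap. At the channel where messenger RNA leaves, Rps14, Rps26 and Rps28 had a median log2 fold change of -0.39. All 3 had groups that did not overlap (background 9.58% lower). Rps3, Rps10 and Rps20, which are ubiquitylated when ribosomes collide, had a median of -0.38. Rps6, the substrate of S6 kinase, was at 45251, 45279 and 38193 against 31632, 36523 and 32935, without overlap (log2 fold change -0.35, SE 0.11; limma adjusted p 0.205). Rps27a, made as a fusion to ubiquitin, was at 1506, 1151 and 901 against 760, 966 and 956, and its groups overlapped (log2 fold change -0.38, SE 0.19; limma adjusted p 0.45). Without WT1 its fold change was -0.20, and without WT3 it was -0.57.

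The 6 members with the most normalized reads were Rpl13a, Rpsa, Rpl12, Rps4x, Rpl4 and Rps3, with means over the 6 libraries of up to 150134. Rpl13a (chromosome 7, 45125563 to 45128745), which is also released from the ribosome to silence inflammatory messenger RNAs, was at 185862, 169983 and 148979 against 118280, 148575 and 129127. WT3 and KO2 were almost equal (log2 fold change -0.35, SE 0.13; limma adjusted p 0.308). Rpsa, also known as the laminin receptor, was at 154813, 155810 and 140371 against 103561, 122725 and 120398, with a clear gap between the groups (log2 fold change -0.38, SE 0.11; limma adjusted p 0.182). Rps4x was at 142919, 134782 and 121131 against 82703, 105534 and 93631 (log2 fold change -0.50, SE 0.12; limma adjusted p 0.114), and Rpl4 at 124614, 131139 and 113566 against 92871, 107845 and 99897 (log2 fold change -0.30, SE 0.11; limma adjusted p 0.294). Under quantile normalization the log2 fold changes of all 6 were nearer to 0 or above it. They were -0.15 for Rps4x, -0.09 for Rps3, -0.07 each for Rpsa and Rpl12, and 0.07 and 0.04 for Rpl13a and Rpl4. That setting gives every library the same set of values, which by construction limits differences among the most abundant rows.

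Among paralogs, genes that encode a second version of a ribosomal protein, levels are compared per kilobase of transcript. Rpl22l1, the paralog of Rpl22 that has its own part in T cell development, had a wild-type mean of 19140 per kilobase, against 56.5 for the row of Rpl22. Rpl22 has 5 curated RefSeq transcripts and 3 rows, and the labels do not say how shared reads were assigned. Its row may therefore not give the level of the gene, and the 2 paralogs cannot be ranked from it. Rpl22l1 was at 12861, 9289 and 9547 normalized reads in WT1 to WT3 against 5505, 7850 and 6546 in KO1 to KO3. The groups did not overlap, and the log2 fold change, -0.67 (SE 0.16; limma adjusted p 0.111), was the lowest of the members after Rpl39l. Rpl22 was at 125, 100 and 122 against 92.8, 124 and 90.9, with overlap (log2 fold change -0.18, SE 0.20; limma adjusted p 0.746; from -0.33 to -0.10 with 1 library left out).

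Rpl39l, the paralog of Rpl39 known from the testis, was at 34.7 per kilobase in the wild-type libraries, against 69765 for Rpl39. It had the lowest log2 fold change of all members, -1.03 (SE 0.43; limma adjusted p 0.358), from 26.5, 26.4 and 30.9 normalized reads to 7.85, 13.1 and 21.5. Rpl3l, the paralog of Rpl3 in muscle, had no read in the wild-type libraries and at most 0.797 normalized reads in a knockout library, and was not tested. Rpl7l1 and Rps27l, paralogs of Rpl7 and Rps27, are described next.

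A small number of members lay near 0 or above it. Rpl7l1, which acts in ribosome assembly, was at 3835, 3873 and 3462 normalized reads in WT1 to WT3 against 3513, 4232 and 3351 in KO1 to KO3 (log2 fold change -0.02, SE 0.11; limma adjusted p 0.969). KO2 was the highest of the 6 and KO3 the lowest. Rps27l, a paralog of Rps27 that p53 induces, was at 1291, 1524 and 1127 against 1001, 1500 and 1420, with full overlap (log2 fold change -0.02, SE 0.17; limma adjusted p 0.975). Rps24 and Rpl35a, both with at most 211 normalized reads in a library, had log2 fold changes of -0.03 (SE 0.27) and 0.03 (SE 0.36). Without WT3 this row of Rpl35a was at -0.43. Another row of Rpl35a, with a mean of 120 against 153 normalized reads, was at -0.22 (SE 0.23). With the rows of Rpl35a summed the log2 fold change was -0.10.

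Rps16 was the only member more than 0.1 above 0. Its row was at 630, 1230 and 1678 in WT1 to WT3 against 2585, 1054 and 2163 in KO1 to KO3. In the wild-type libraries this was 1064 per kilobase of transcript, against 37612 for Rpl37. The row is therefore uncertain as a level of the gene, although Rps16 has only 1 curated RefSeq transcript. The groups overlapped, and WT1 and KO2, the shallowest libraries and those with Y-linked reads, were the lowest of their groups (log2 fold change 0.73, SE 0.40; limma adjusted p 0.508). Without WT1 the fold change was 0.33, and without KO2 it was 1.11. Depth and Y-linked reads go together in these libraries and cannot be told apart.

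To ask which members depart from the others, each library was scaled to the median log2 value of the members and all rows were fitted again. This scaling moves the median of all tested rows, and 1371 rows (10.5%) were then called higher and 17 (0.131%) lower. None of the 82 members was called, and 3 had an unadjusted p under 0.05, all of them higher (background 40.2% higher and 0.407% lower). They were Rps16 at 1.10 (SE 0.41), Rpl7l1 at 0.35 (SE 0.13) and Rps27l at 0.35 (SE 0.14) on the log2 scale, with limma adjusted p of 0.0857, 0.0823 and 0.0978. On this scale Rps16 was called with depth as a covariate (0.91, SE 0.14, limma adjusted p 0.0104) and without KO2 (1.52, limma adjusted p 0.049). Rpl7l1 was called without KO3 (0.47, limma adjusted p 0.0131). The share of all rows called in these refits was not computed, and in the fit above 10.5% of rows were called higher. Rpl39, Rpl22l1 and Rpl39l, the members furthest below the rest, were at -0.27, -0.30 and -0.66 against the set, with limma adjusted p of 0.13 or more.

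The members that missed an unadjusted p of 0.05 were mostly rows with few reads. Of the 65 members with a mean of at least 10000 normalized reads, 64 passed it, and the groups did not overlap in 63. Their log2 fold changes ran from -0.64 to -0.21 with a median of -0.39. The exception was Rpl11, and Rps15 was the other member whose groups overlapped. Of the 17 tested members below that line, 6 passed and 7 did not overlap, with a median of -0.35.

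Several of those low rows belong to core ribosomal proteins. In the wild-type libraries Rps24 was at 127 per kilobase, Rpl31 at 115, Rpl26 at 103 and Rpl35a at 317, while Rpl37, with 31406 ± 1685 normalized reads (SD, n = 3), was at 37612. Of the 18 members under the line, 13 have several curated RefSeq transcripts, as do 9 of the 65 above it. Rows are transcripts, and the labels do not say how reads shared by transcripts of a gene were assigned. The level of a low row is therefore uncertain as a level of its gene, and the row of Rps27 carries a non-coding transcript accession. Across the 82 members, the log2 fold change had a Pearson r of -0.19 and a Spearman rho of -0.34 with the wild-type level. Across the 81 with a known transcript length these were 0.03 and -0.03 with the length. The genes share libraries and are not replicates, so these values are descriptions.

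Other abundant or short rows lay nearer to 0. The 448 other rows with a mean of at least 10000 normalized reads had a median log2 fold change of -0.02 and 52.9% below 0. The 1186 other rows with a transcript of at most 1000 bases had a median of -0.08, with 62.1% below 0. Only 14 other rows were both that abundant and that short, with a median of -0.22 and 13 below 0. Of these 14, 5 (35.7%) were lower at an unadjusted p under 0.05 in limma. Of the 448 abundant rows 59 (13.2%) were, against 5.84% of all rows tested. Ribosomal proteins outside the name rule were not removed from these other rows. The part of transcript length or abundance in the result was not tested further.

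Leaving out KO3 was the setting with the most calls. Without it, 12 members fell, among them Rps2, Rps12, Rps20, Rps26, Rps28, Rpl8, Rpl23, Rpl27, Rpl39, Rpl41 and Rplp1 (background 1.55%). The lone pair of knockout libraries then gave log2 fold changes of -0.73 for Rpl39 and -0.68 for Rps12 (limma adjusted p 0.0153 and 0.019). With depth as a covariate, 6 members fell, which were Rps4x, Rps7, Rps19, Rps20, Rpl13 and Rplp1 (background 0.253%). Without any other library 0 members were called. In the 4 libraries with few Y-linked reads, 2 against 2, 0 members were called (background 0.00768%) and the median was -0.40.

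Ribosomal proteins whose names fall outside the rule were also lower. Rack1, the scaffold protein on the small subunit, was at 118759, 116719 and 103461 in WT1 to WT3 against 79063, 93892 and 86204 in KO1 to KO3. Rpl36al and Fau had log2 fold changes of -0.46 each. In these 3 genes the groups did not overlap (background 9.58% lower) and the unadjusted p was under 0.05 (background 5.84% lower). Limma called 0 of the 3, and their median was -0.46. Without KO3, 1 of the 3 was called lower (background 1.55%).

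Of 11 elongation and termination factors limma called 0, and 4 were lower at an unadjusted p under 0.05 (background 5.84%). The median log2 fold change of the 11 was -0.29. The 4 were Eef1a1, Eef1b2, Eef1g and Eef2. Eef1a1, which carries transfer RNA to the ribosome, was at 793011, 780112 and 696592 against 538065, 626054 and 568663, without overlap (log2 fold change -0.39, SE 0.13; limma adjusted p 0.259). Eef2, which moves the ribosome along, had a log2 fold change of -0.29 (SE 0.11).

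Initiation factors were nearer to 0. Of 38 tested, limma called 0 and the median was -0.07. At an unadjusted p under 0.05, 3 were lower, Eif3i, Eif4a1 and Eif4a2 (background 5.84%). A list of 24 other known TOP messenger RNAs shares Rack1, Fau and the elongation factors with the lists above. Its median was -0.23, with 8 lower at an unadjusted p under 0.05 (background 5.84%). Hspa8, a chaperone, and Imp3, which processes ribosomal RNA, were the 2 of those 8 not named so far, at log2 fold changes of -0.30 and -0.35. Of 78 mitochondrial ribosomal proteins, 62 were below 0 and 1, Mrps24, had an unadjusted p under 0.05, with a median of -0.09. Without KO3, limma called 1 initiation factor lower and 1 higher, 1 other TOP messenger RNA lower, and 0 elongation factors and 0 mitochondrial ribosomal proteins. In that setting 1.55% of all tested rows were called lower, and the share called higher was not computed. No difference between these lists was tested.

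**Figure D5:**
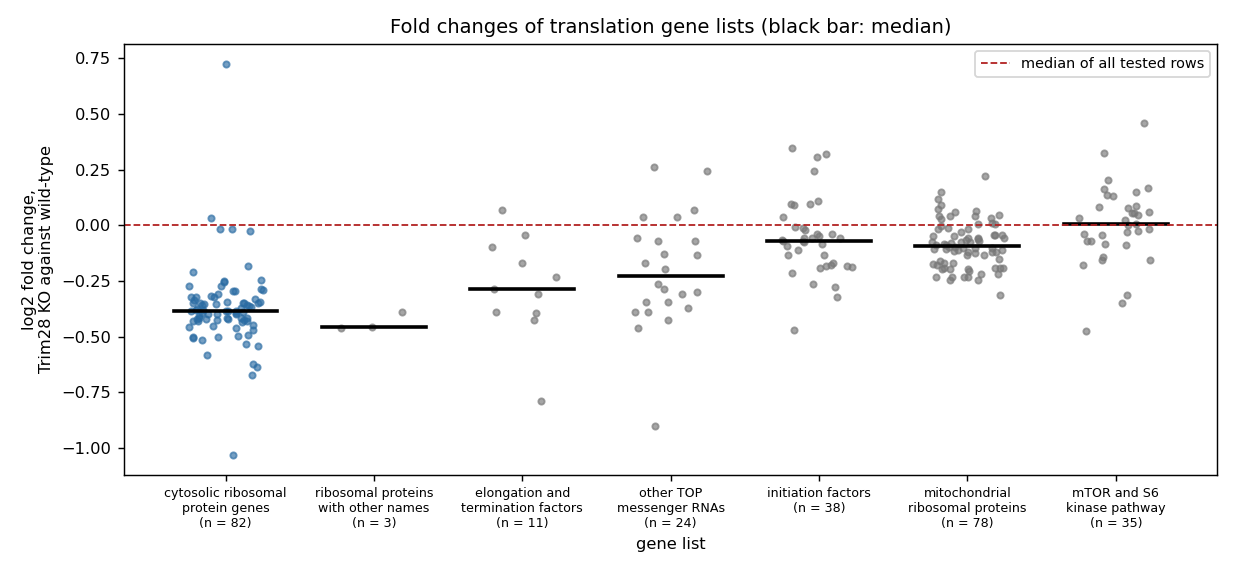
Log2 fold changes (vertical axis), Trim28 KO against wild-type, of the tested genes of 7 lists (points), with the median of each list as a black bar and the median of all 13022 tested rows as a dashed line. The medians run from -0.46 and -0.38 for the ribosomal protein lists through -0.29 and -0.23 to -0.07, -0.09 and 0.01 for initiation factors, mitochondrial ribosomal proteins and the mTOR pathway.

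Transcripts of genes that control ribosome production lay near 0. Among 35 genes of the mTOR and S6 kinase pathway limma called 0, with a median of 0.01. Ddit4, an inhibitor of mTOR, was at 10051, 9376 and 9555 against 6826, 7917 and 6206 (log2 fold change -0.47, SE 0.10; limma adjusted p 0.0756). Sesn3, another inhibitor, was at 2991, 4156 and 3796 against 6100, 4477 and 4475 (log2 fold change 0.46, SE 0.16; limma adjusted p 0.27). Both had groups that did not overlap, in opposite directions.

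Of 18 Myc and RNA polymerase I genes, 16 ribosomal protein chaperones and 17 transcription factors of ribosomal protein genes, limma called 0. Unadjusted p under 0.05 was reached by Taf1d (lower) and Mxd1 (higher) in the first list, by 0 in the second and by Elf1 (lower) in the third, with medians of -0.08, -0.09 and -0.05. Gabpa, whose motif stood in 36% of the member windows, was at 4549 ± 355 and 5041 ± 540 (SD, n = 3 per group). Of 17 genes of ribosome quality control, limma called 0, and Pelo (higher), Edf1 and Zfp598 (lower) had an unadjusted p under 0.05.

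Of 15 tested p53 pathway genes, Bbc3, a trigger of apoptosis, fell, from 1668, 1098 and 1227 to 469, 767 and 574 (log2 fold change -1.15, SE 0.21; limma adjusted p 0.0326). Bbc3 was no longer called when WT1, WT2, WT3 or KO1 was left out, and its limma adjusted p with 1 library left out ran from 0.0203 to 0.145. The median of this list was -0.02, and without KO3 limma called 2 of the list lower and 1 higher (background 1.55% lower, with the share higher not computed). Phlda3 and Mdm4 were higher at an unadjusted p under 0.05, at log2 fold changes of 1.11 and 0.23. Rps27l, which is also in this list, was described above.

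Members were also divided by the TOP motif at the annotated start, and no difference between these groups was tested. The 14 members with a C and at least 4 pyrimidines exactly at the annotated start had a median log2 fold change of -0.36, the 48 tested members with an entry but without it -0.39, and the 20 without an entry -0.39. Among other tested genes, the 277 with such a start had a median of -0.04, with 56.7% below 0, and the 9076 without it 0.004, with 49.3% below 0. Of the stretches printed above, Rps12, Rpl22l1 and Rps18 had log2 fold changes of -0.58, -0.67 and -0.37, Rps6 and Rpl13a of -0.35 each, and Rpl28, Rpl18 and Rps10 of -0.25, -0.30 and -0.38. An annotated start can differ from the start used in these cells, which was not measured here.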

How the data were processed

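RNA-seq of 6 libraries was analysed. The submitters' processing notes name the tools STAR, HTSeq and DESeq2, and mm10 as the build, without versions or roles. The authors deposited 1 table of 19048 transcript rows whose values are on a log10 scale, log10 of 1 plus normalized reads. The scale was found from the values: turned back, 100% were whole multiples of 1 step in each library (tolerance 0.01). Rows were named with a RefSeq table (GRCm38.p6; 18807 rows) and GENCODE M21 (108 rows); 133 rows, with 2.70% of the values, had no symbol. The row with the highest total stood for a gene; 5 members had 7 further rows. Strand is not given, so antisense reads cannot be told apart.

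Rows with a mean of at least 10 were fitted with limma 3.58.1 (R 4.3.3) on log2 of normalized reads plus a pseudocount of 1, with the trend, all 6 libraries and no covariate. Calls were at a Benjamini-Hochberg adjusted p under 0.05 over 13022 rows, two-sided, and the script was tested on simulated data. The pseudocount understates folds of low rows. Count models were not run, since the values are log10; limma's voom weights on recovered reads were used as an alternative. Depth limits precision only in part. The standard error of a member's log2 fold change ran from 0.08 to 0.43, and was 0.18 for Rplp0 at a mean of 97819 normalized reads.

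Members and gene lists were chosen with earlier results of these data known. Named members are the 6 with the highest mean, the 6 with the smallest p, the 6 highest and 6 lowest fold changes, members of the role lists, and members called under some setting; of other lists, those called and up to 4 with the smallest p. Other settings were pseudocount, filter, scaling, variance model, replicate block and leaving out each library. Depth as a covariate and only libraries with few Y-linked reads were chosen after seeing the data. A few genes are not reported here by name or in the smaller lists; members among them stay in the counts over all members.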

Additional observations from a re-analysis of the deposited data

How the results depend on the processing

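The median log2 fold change of the members was below 0 under all 20 other settings, from -0.44 to -0.21. It was -0.21 with quantile normalization (all rows -0.04), where 29 members in place of 70 were lower at an unadjusted p under 0.05 and the share of the table differed by -1.26 points, and -0.33 with libraries scaled to the table total (all rows 0.06). With few Y-linked reads, 42 were lower at that p. Leaving out each library gave -0.44 to -0.30 for the median, -3.35 to -2.18 points for the share, and 0 to 12 members called lower. Members called lower numbered 6 with depth as a covariate, and 1 each with a mean of at least 50, with the upper quartile and with voom weights; under the remaining settings, 0. Relative to the member set, 1 was called higher with depth as a covariate and 0 to 1 with each library left out. The share of all rows called was not computed for these refits. Of 619 values of named members under alternatives, 577 kept direction and side of the threshold, 21 passed it and 21 reversed, and the cause was not tested. Reversed were Rpl13a (0.0709) and Rpl4 (0.0402) with quantile normalization, and Rpl35a with quantile normalization (-0.0404) and rows summed per gene (-0.0972). With depth as a covariate and with the table total, Rpl7l1 reversed to 0.0156 and 0.0407, Rps24 to 0.05001 and 0.0286, and Rps27l to 0.0281 and 0.0368; with few Y-linked reads Rps24 was at 0.0308. Leaving out each library gave -0.433 to 0.306 for Rpl35a, -0.116 to 0.0523 for Rpl7l1, -0.223 to 0.150 for Rps24 and -0.129 to 0.162 for Rps27l. Of 160 medians of related lists under alternatives, 14 moved by more than 1 SD of the replicates. Whether the replicate numbers pair the samples could not be told. Same-numbered libraries correlated at -0.31, 0.26 and 0.36 in their deviations from the group means, and differently numbered ones at -0.44 to 0.37. With 3 libraries a group these deviations depend on each other. With the replicate block 0 members were called, as without it, the median stayed at -0.38 and 69 members had an unadjusted p under 0.05. With 3 libraries a group, an exact permutation test of a single member cannot go below 0.1, and at this depth the standard error was 0.27 for Rps24, 0.36 for Rpl35a and 0.43 for Rpl39l, against a median difference of -0.38.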
